A study of Mus musculus with 14 samples.

Results

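The nuclear-encoded respiratory chain genes are the genes on the chromosomes of the nucleus that encode the subunits of mitochondrial complexes I to V, cytochrome c and the complex I assembly factors. They were chosen by symbol alone: protein-coding RefSeq genes on mouse chromosomes 1 to 19 that begin with Nduf, Uqcr, Cox4, Cox5, Cox6, Cox7, Cox8 or Atp5, or are Sdha, Sdhb, Sdhc, Sdhd or Cycs. The rule took 94 of 21900 protein-coding genes and left out 3 X-linked genes of the same names (Cox7b, Ndufa1 and Ndufb11). The data are ATAC-seq counts, which measure how often a transposase cuts open chromatin, in long-term haematopoietic stem cells (LT-HSCs) of C57BL/6 bone marrow. The groups are 4 libraries of untreated young cells (mice 10 to 16 weeks old), 5 of untreated aged cells (over 80 weeks) and 5 of aged cells given 100 µM of the RhoA inhibitor Rhosin, called Ri, for the whole 16 h. All 3 groups, controls included, spent those 16 h outside the animal, at 37 °C in a salt solution with 10% serum, 3% oxygen and 5% CO2. The sources used here do not say whether libraries came from separate or pooled animals, so p-values measure only the spread between these libraries.

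The respiratory chain passes electrons from NADH (complex I) and succinate (complex II) through complex III and cytochrome c to oxygen at complex IV, and complex V uses the proton gradient this builds to make ATP. Nearly all of its subunits are encoded in the nucleus, and their promoters are known for shared sites of NRF1, of ETS factors such as GABP (with the subunit Gabpa) and of YY1. LT-HSCs at rest are known to draw largely on glycolysis, and to raise respiration when they divide.

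The promoters below are shown because they carry the letters these genes are known for, or belong to the members that the results turn on. Each is the 250 bases before a RefSeq start site (build GRCm38.p6, the same assembly as mm10), read 5′ to 3′ on the gene's strand, and capitals mark matches to any of 6 motifs on either strand. The motifs searched were the NRF1 core GCGCANGCG, the ETS site CCGGAAG, the CCAAT box CCAAT, the GC box GGGCGG, the YY1 site AAGATGGC and the cyclic AMP response element (CRE) TGACGTCA. None of them holds another, and the only overlapping matches shown are a pair of CCAAT boxes in Atp5g1.
Cycs, chr6:50566570-50566819, minus strand: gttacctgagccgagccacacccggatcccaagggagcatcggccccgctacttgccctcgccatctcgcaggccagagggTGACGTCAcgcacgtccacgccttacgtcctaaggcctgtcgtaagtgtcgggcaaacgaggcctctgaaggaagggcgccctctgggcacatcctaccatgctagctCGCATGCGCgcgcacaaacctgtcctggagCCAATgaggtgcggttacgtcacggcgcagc
Sdha, chr13:74350241-74350490, minus strand: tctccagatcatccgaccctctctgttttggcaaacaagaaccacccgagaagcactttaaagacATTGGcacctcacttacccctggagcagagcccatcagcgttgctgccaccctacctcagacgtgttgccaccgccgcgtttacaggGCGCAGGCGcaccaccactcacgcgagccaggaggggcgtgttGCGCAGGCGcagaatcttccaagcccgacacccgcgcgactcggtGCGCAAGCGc
Sdhd, chr9:50603850-50604099, minus strand: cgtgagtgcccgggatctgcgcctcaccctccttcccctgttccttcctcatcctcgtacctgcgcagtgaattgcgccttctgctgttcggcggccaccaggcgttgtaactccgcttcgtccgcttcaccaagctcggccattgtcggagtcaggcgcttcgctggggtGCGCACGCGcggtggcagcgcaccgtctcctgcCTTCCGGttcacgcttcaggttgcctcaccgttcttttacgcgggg
Atp5g1, chr11:96075632-96075881, minus strand: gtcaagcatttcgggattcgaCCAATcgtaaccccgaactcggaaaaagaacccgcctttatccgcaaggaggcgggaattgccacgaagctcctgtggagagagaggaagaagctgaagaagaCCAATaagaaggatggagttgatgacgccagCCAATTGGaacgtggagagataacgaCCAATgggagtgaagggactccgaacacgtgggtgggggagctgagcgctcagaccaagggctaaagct
Ndufa8, chr2:36049339-36049588, minus strand: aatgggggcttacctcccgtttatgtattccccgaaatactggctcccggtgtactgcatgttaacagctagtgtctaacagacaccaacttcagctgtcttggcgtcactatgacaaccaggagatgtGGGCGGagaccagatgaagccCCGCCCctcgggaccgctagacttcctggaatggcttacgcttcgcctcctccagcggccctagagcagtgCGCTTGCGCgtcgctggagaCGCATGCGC
Ndufaf3, chr9:108567437-108567686, minus strand: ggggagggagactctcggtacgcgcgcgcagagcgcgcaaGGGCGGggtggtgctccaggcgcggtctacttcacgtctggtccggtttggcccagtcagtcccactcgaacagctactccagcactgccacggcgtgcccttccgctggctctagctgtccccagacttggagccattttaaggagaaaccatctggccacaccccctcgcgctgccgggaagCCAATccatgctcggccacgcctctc

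Cycs, which encodes cytochrome c, held an NRF1 core from 61 to 53 bases before its start, a CRE from 169 to 162 and a CCAAT box from 31 to 27. Sdha, the flavoprotein of complex II, held 3 NRF1 cores, the nearest from 10 to 2 bases before the start. Sdhd, a membrane anchor of complex II, held an NRF1 core and, nearer the start, an ETS site. Atp5g1, a gene for the c subunit of the ATP synthase ring and the most accessible member, held 5 CCAAT boxes and no other match. The 2 members that later passed a test differed: Ndufa8, an accessory subunit of complex I, held 2 NRF1 cores within 29 bases of its start, and Ndufaf3, a complex I assembly factor, held a GC box and a CCAAT box.

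Of the 94 members, 76 were in the RefSeq promoter table, and their whole windows (250 bases before to 50 after the start) were compared with those of 17492 protein-coding genes and with the 10763 of these whose start-site peak was tested. An NRF1 core stood in 23 members, or 30.3%, against 9.63% of all genes and 14.7% of genes with a start-site peak. A YY1 site stood in 14.5% of members, against 3.57% and 4.97%, and an ETS site in 25%, against 12.9% and 19.3%. The CRE was held by 5 members (6.58%), against 2.54% and 3.59%. CCAAT boxes were as frequent in members (43.4%) as in the other sets (42.3% and 43.0%), and GC boxes were in 46.1% of members, 49.2% of all genes and 69.0% of genes with a start-site peak. In all, 44 of 76 members (57.9%) held an NRF1 core, an ETS site or a YY1 site, against 22.8% of all genes and 33.7% of genes with a start-site peak. A match describes letters in a window and is not evidence that a factor bound there.

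**Figure D1:**
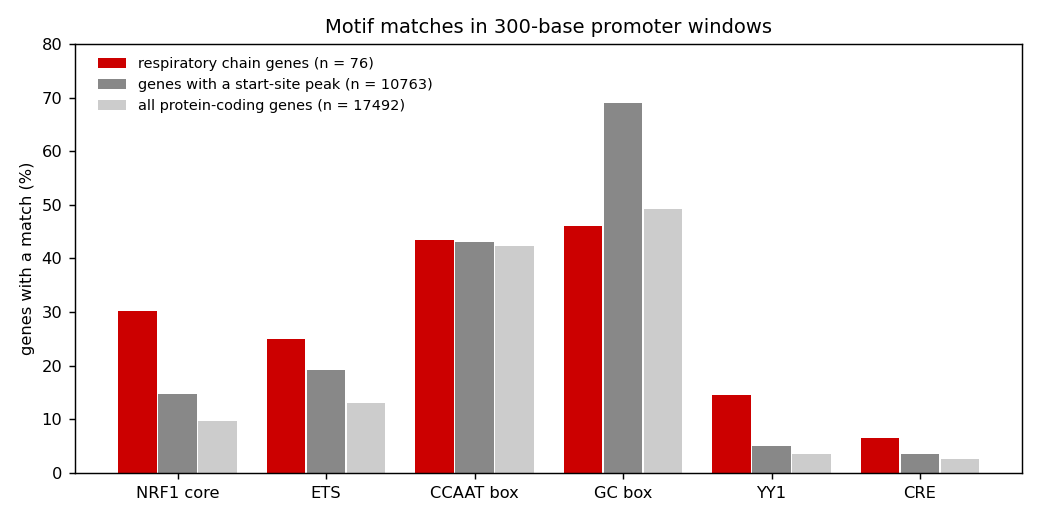
Percent of genes (y axis) with at least 1 match to each of 6 motifs (x axis) in the 300-base window at a RefSeq start site; bars stand for respiratory chain genes (n = 76), genes with a tested start-site peak (n = 10763) and all protein-coding genes (n = 17492). The NRF1 core was in 30.3% of respiratory chain genes and 9.63% of all genes, while the CCAAT box was near 43% in every set.

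Peaks are the 57289 consensus regions of 700 bp in the deposited files. A peak within 1 kb of an annotated gene end was given to that gene, and of a gene's 2 ends the one with more counts was used; it is called the gene end below. In this way 85 members had counts, from 94 peaks at either end, and all 85 passed the filter on low counts. At 66 members the end used was the RefSeq start, at 2 (Ndufa8 and Ndufb6) it was the 3′ end, at 2 (Cox6b2 and Atp5k) the same peak lay at both ends, and at 15, which are not in the promoter table, it could not be placed. Of the 9 members without a peak at an end, Atp5d, Cox5a and Cox7a2 had a peak at a RefSeq start site inside a longer annotated gene. The remaining 6 were Cox6a2, Cox7b2, Cox8b, Cox8c, Ndufb4b and Ndufb4c. Cox6a2 and Cox8b are subunit isoforms known from heart and muscle, and Cox7b2 and Cox8c are isoforms known from testis.

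Library totals ran from 765533 to 3176246 counts in 3 sequencing batches, each with libraries of every group. Gene-end peaks took 47.0 to 50.8% of the counts in young, 38.8 to 49.6% in aged and 35.9 to 46.8% in Ri libraries. Gene ends of the stem cell marker list had counts for 10 of 12 genes (Slamf1 and Gata2 had none), at 16.4 to 103.8 and a median of 46.4 CPM per peak (CPM puts the counts of all libraries on the same total). Mature blood markers had counts at 9 of 14 genes, at 10.6 to 107.3 and a median of 19.1 CPM per peak, and none at Cd3e, Cd8a, Ms4a1 or Ly6g, among others. Markers of cells outside the blood had counts at 3 of 11, at 22.9 to 38.2 and a median of 35.4 CPM per peak, with none at Alb, Ins2, Myh6, Gfap, Krt5, Cdh5, Lepr or Cxcl12.

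Respiratory chain gene ends were more accessible than most. Their median was 65.8 CPM per peak (relative to gene-end counts, scaled by edgeR, mean of 14 libraries), against 51.9 for all 13239 gene ends tested and 91.6 for 78 cytosolic ribosomal protein genes, and 58 of 85 members lay above the median gene end. Atp5g1 stood first with 399.9 CPM per peak. Ndufs8, an iron-sulfur subunit of complex I, had 212.0, Uqcrq, a small subunit of complex III, 204.6, Ndufb5, an accessory subunit of complex I, 203.5, and Ndufv1, the NADH-binding subunit, 191.9. Cycs had 150.4, with every library between 108.8 and 189.2.

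The complexes themselves had similar medians: 65.8 CPM per peak over 35 genes of complex I, 65.7 over 4 of complex II, 74.99 over 8 of complex III, 56.1 over 13 of complex IV and 68.0 over 16 of complex V. The 8 complex I assembly factors had a median of 60.6. Within each complex the genes differed far more, as in complex V from 33.7 at Atp5j2 to 399.9 at Atp5g1. Low members were Cox4i2, the oxygen-responsive isoform of the complex IV subunit Cox4, with 13.8, Ndufa4l2, a hypoxia-induced relative of Ndufa4, with 18.3, and the complex I subunits Ndufc2 with 18.8 and Ndufs4 with 18.9. Cox4i1, the common isoform of Cox4, had 73.1. Ndufa4, now counted with complex IV, had 58.7.

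**Figure D2:**
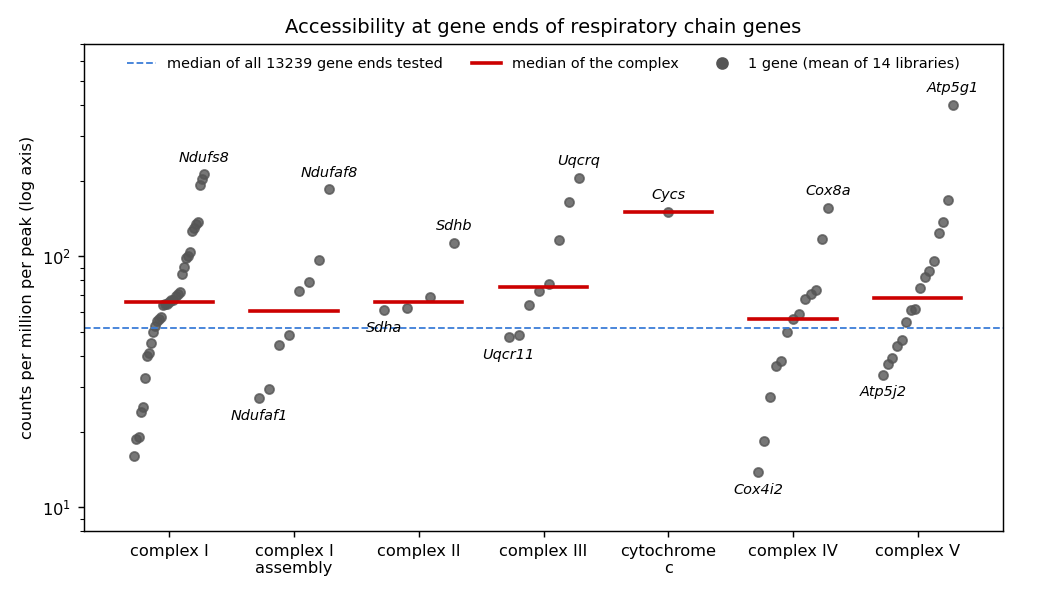
CPM per peak at the gene end (y axis, log scale) of 85 respiratory chain genes by complex (x axis); each point is 1 gene (mean of 14 libraries), red lines are medians of the complex and the dashed line is the median of all gene ends tested (51.9). Points spread from 13.8 at Cox4i2 to 399.9 at Atp5g1, while the medians of complexes I to V lie between 56.1 and 74.99.

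Many members share their peak with a neighbouring gene, and their counts then cannot be assigned to either gene. This was so for 40 of 85 members (47.1%), against 25.8% of all gene ends. Several partners are themselves mitochondrial: Ndufb5 shares its peak with Mrpl47 and Ndufs6 with Mrpl36 (mitochondrial ribosome), Sdhd with Timm8b (protein import) and Uqcrb with Mterf3 (mitochondrial transcription). Atp5j, which encodes coupling factor 6 of complex V, shares its peak with Gabpa, so that the regulator and its known kind of target had the same values here. Ndufa7 shares a peak with the ribosomal protein gene Rps28, Cox4i1 with Emc8 and Ndufaf3 with Dalrd3.

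The first comparison asked what differs in aged LT-HSCs. Of 85 members, 1 changed: the gene end of Ndufa8 rose. Over all gene ends 2.10% were called (278 of 13239; edgeR quasi-likelihood test, Benjamini-Hochberg adjusted p under 0.05), so 1 member in 85 is close to that background. The signs leaned downward, with 58 of 85 members (68.2%) below 0 against 50.8% of all gene ends. The members' median log2 fold change was -0.06 against -0.01. This lean was not particular to the respiratory chain. Of 78 cytosolic ribosomal protein genes 62.8% were below 0 (median -0.06), and of 18 Nup genes of the nuclear pore 66.7% (median -0.13). At an unadjusted p under 0.05, 5 members were higher and 6 lower (5.88% and 7.06%), against 10.3% and 7.27% of all gene ends.

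Ndufa8 encodes a subunit on the intermembrane-space side of complex I. The peak that rose (chr2:36035363-36036062) lies 262 bp beyond the 3′ end of the gene (chr2:36036324-36049338, minus strand), outside any part of it. In young libraries 1 to 4 it had 26.3, 31.9, 16.2 and 27.6 CPM, and in aged libraries 1 to 5 it had 75.2, 53.1, 95.1, 56.0 and 30.7. Aged 1 to 4 were above every young library, while aged 5 lay between young 4 and young 2, so the groups overlapped. The mean went from 25.5 ± 6.66 (SD, n = 4) to 62.0 ± 24.3 (SD, n = 5) CPM (log2 1.09 ± 0.29 SE; edgeR adjusted p = 0.0472). Within batches 1, 2 and 3 the log2 ratio of means was 1.29, 1.65 and 0.16, and batch 3 holds 1 aged and 1 young library.

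The start-site peak of Ndufa8 (chr2:36048917-36049616), whose promoter is printed above, did not follow. In start-site counts young cells had 54.4 ± 19.2 (SD, n = 4) CPM there, aged cells 42.3 ± 11.6 (SD, n = 5) and Ri-treated cells 51.7 ± 10.9 (SD, n = 5), and the log2 change with age was -0.38 ± 0.21 SE (edgeR adjusted p = 0.338). The log2 ratio of the peak beyond the 3′ end to the start-site peak ran from -1.84 to -0.04 in young, from 0.30 to 1.21 in aged and from 0.29 to 2.30 in Ri libraries. On this ratio, chosen after the values were seen and so not tested, all 10 aged libraries, treated or not, lay above all 4 young. The call with age was lost without young 1, 2 or 3 or aged 1, 2 or 3 (edgeR adjusted p from 0.0784 to 0.203). It was also lost with counts of both gene ends summed (0.281), with scaling over all peaks (0.0635) and with no batch term (0.162). With a covariate for each library's gene-end share the log2 change was 0.51 (edgeR adjusted p = 0.667).

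**Figure D3:**
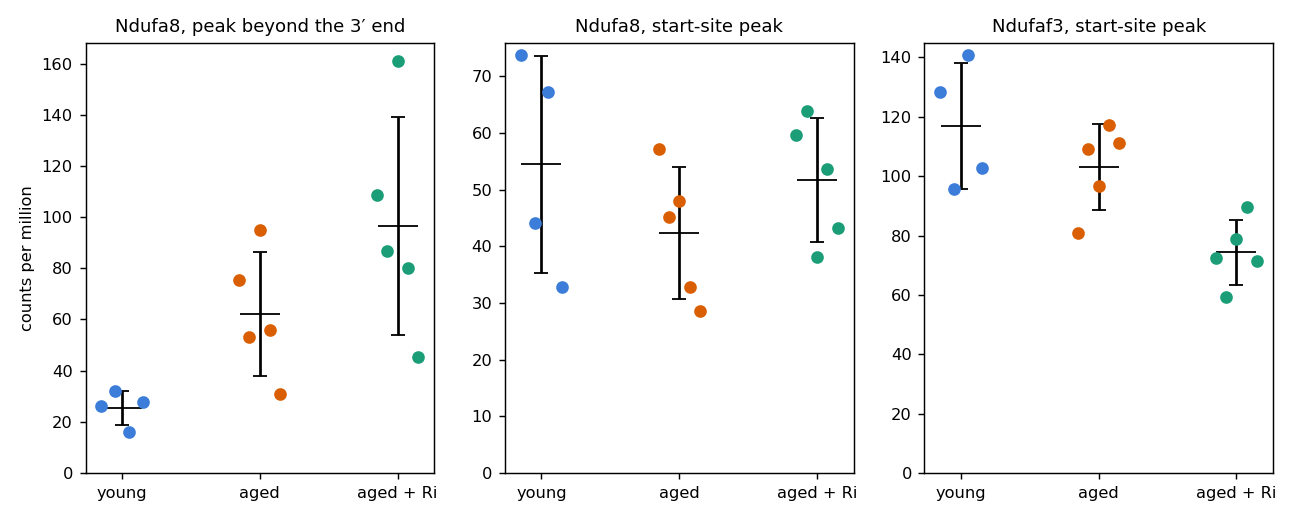
CPM (y axis, from 0) in each library by group (x axis) for the peak beyond the 3′ end of Ndufa8, the Ndufa8 start-site peak and the Ndufaf3 start-site peak; points are libraries, and bars are the mean and SD (n = 4, 5 and 5). The middle panel is relative to start-site counts and the others to gene-end counts; the left panel goes from 16.2 to 31.9 in young to 45.5 to 160.9 in Ri libraries, while the middle panel overlaps in all groups.

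No other member passed in aged cells. The largest values after Ndufa8 were at Cox7a2l (log2 0.53 ± 0.17 SE, edgeR adjusted p = 0.0804), Ndufa4l2 (log2 0.49) and the complex I subunit Ndufb2 (log2 0.47). Cox7a2l is known for a role in joining complexes III and IV into supercomplexes, which was not examined in these mice. Cox7a2l had 61.4, 52.8, 30.0 and 54.4 CPM in young and 80.8, 83.9, 83.0, 72.0 and 65.8 in aged libraries. The groups did not overlap, but the difference did not pass the threshold over all gene ends. Cox7a2l was named for its large value, and the share of all gene ends without overlap is not given here. It passed without young 4 (edgeR adjusted p = 0.0365), the young library of batch 3.

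The lowest values belonged to genes of 3 complexes: Ndufa9 of complex I (log2 -0.50), Uqcrc1, a core protein of complex III (log2 -0.48), Sdha of complex II (log2 -0.44) and Ndufb4 of complex I (log2 -0.41). Sdha had 73.4, 74.8, 85.5 and 56.7 CPM in young and 55.1, 43.3, 52.4, 50.7 and 57.8 in aged libraries. Young 4 lay below aged 5, so the groups overlapped, and the adjusted p was 0.181 in edgeR. Uqcrc1 went from 77.4 ± 9.26 (SD, n = 4) to 55.4 ± 14.9 (SD, n = 5) CPM, with aged 4 inside the young range (edgeR adjusted p = 0.203). Cycs had 157.0 to 173.0 CPM in young and 108.8 to 158.7 in aged libraries (log2 -0.24, edgeR adjusted p = 0.377).

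By complex, all 8 assembly factors of complex I and 13 of 16 genes of complex V had values below 0 in aged cells, with medians of -0.23 and -0.21 and no member of either called. Complex I itself had 21 of 35 below 0 and a median of -0.02, complex III 5 of 8 and -0.02, and complex IV 7 of 13 and -0.17. In complex II 3 of 4 were below 0, Sdhd (log2 0.05) being the exception. Whether complexes differ was not tested. Among members that share a peak with another gene the median was -0.04 (40 genes), and among those that do not it was -0.10 (45 genes).

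**Figure D4:**
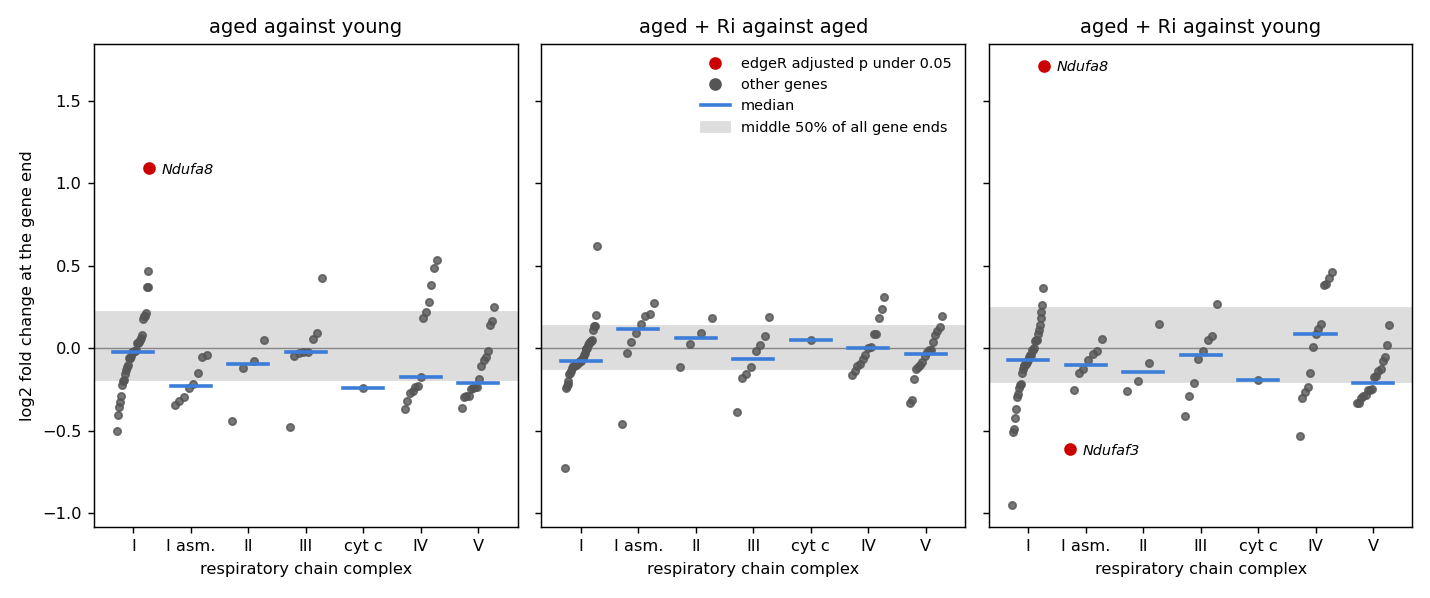
Log2 fold change at the gene end (y axis) of 85 respiratory chain genes by complex (x axis) in 3 comparisons; each point is 1 gene, red points passed the edgeR test, blue lines are medians and the grey band is the middle 50% of all 13239 gene ends. Ndufa8 stands above all others at 1.09, 0.62 and 1.71, and Ndufaf3 passed at -0.61 in the comparison of Ri-treated with young cells.

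Aged cells with and without Ri were then compared, to see what RhoA inhibition does to these genes. No member of the respiratory chain passed the edgeR test, and 10 of 13239 gene ends (0.0755%) did. DESeq2 also called 0 members. At an unadjusted p under 0.05 in edgeR, 1 member was higher and 3 lower, or 1.18% and 3.53%, against 3.99% and 2.73% of all gene ends. The members' median was -0.03 against -0.00 for all gene ends.

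Same-numbered aged and aged Ri libraries, which also share a batch, deviated together, though the sources used here do not say that they are pairs. With the replicate number as a block in place of batch, 150 of 13013 gene ends (1.15%) and 2 of 85 members passed. Ndufa8 was higher after Ri (log2 0.63 ± 0.14 SE, edgeR adjusted p = 0.00289 with the block; log2 0.62 without). In aged Ri 1 to 5 its peak had 108.6, 86.6, 160.9, 80.2 and 45.5 CPM, each above the aged library of the same number given above. Ndufaf3 was lower (log2 -0.47 ± 0.13 SE, edgeR adjusted p = 0.0448 with the block; log2 -0.46 without). Its end had 80.8, 109.1, 96.7, 117.4 and 111.2 CPM in aged 1 to 5. In aged Ri 1 to 5 it had 72.4, 59.3, 78.7, 89.6 and 71.6, each below the aged library of the same number although the groups overlapped. Both members were named because they passed, and the share of all gene ends with such an order is not given here.

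Among other members the largest values after Ri were at Cox7a1 (log2 0.31), a complex IV isoform known from heart and muscle, at the assembly factor Ndufaf5 (log2 0.27) and at Cox6b2 (log2 0.24), a complex IV isoform known from testis. The lowest after Ndufaf3, among members with a mean count of at least 20, were Uqcrc2, a core protein of complex III (log2 -0.39), and the complex V genes Atp5a1 (log2 -0.33) and Atp5j2 (log2 -0.31). None of these passed. By complex the medians lay between -0.08 in complex I and 0.12 in its assembly factors, of which 6 of 8 were above 0.

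The third comparison set Ri-treated aged cells against young cells; it shares its libraries with both others and adds no independent evidence. Here 689 of 13239 gene ends (5.20%) and 2 of 85 members passed, a share of members below the background. Ndufa8 rose to 96.4 ± 42.6 (SD, n = 5) CPM from 25.5 ± 6.66 (SD, n = 4), with every Ri library above every young library (log2 1.71 ± 0.27 SE; edgeR adjusted p = 6.92e-04). It passed in every run that used its gene end, including those that left out 1 library each, and within batches the log2 ratio of means was 1.89, 2.33 and 0.72.

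Ndufaf3, the assembly factor of complex I, fell. Its peak (chr9:108566907-108567606) covers the start sites of Ndufaf3 and Dalrd3, and the promoter printed above runs into it. Young 1 to 4 had 128.5, 95.7, 140.9 and 102.6 CPM, and all 5 Ri libraries, at 59.3 to 89.6, lay below them. For Ndufa8 and Ndufaf3 alike, the share of all gene ends separated in this way is not given here. The mean went from 116.9 ± 21.3 (SD, n = 4) to 74.3 ± 11.1 (SD, n = 5) CPM (log2 -0.61 ± 0.15 SE; edgeR adjusted p = 0.0110). Within batches the log2 ratio of means was -0.96, -0.49 and -0.52. The call was lost without young 1 (edgeR adjusted p = 0.136) and with the library's gene-end share as covariate (0.416).

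The other extremes of this comparison, among members with a mean count of at least 20, did not pass. Cox4i1 was at log2 -0.53 (edgeR adjusted p = 0.0544), Ndufa9 at -0.51 and Ndufb4 at -0.49, while Cox6b2 was at 0.46, Cox7a2l at 0.42 and Ndufa4l2 at 0.39. Cox4i1 had 68.6, 87.1, 85.5 and 127.1 CPM in young and 47.5 to 83.5 in Ri libraries, so the groups overlapped. Of 85 members 59 were below 0 (69.4%, against 50.6% of all gene ends), and the median was -0.09 against -0.00. Cytosolic ribosomal protein genes leaned further, with 76.9% below 0 and a median of -0.16. Nup genes had 66.7% below 0 and a median of -0.14. In complex V 14 of 16 members were below 0, with a median of -0.21. Without aged Ri 2 the count of members that passed was 5 (8.14% of all gene ends passed in that run), without aged Ri 4 it was 6 (9.07%) and without young 1 it was 1 (1.61%).

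These values compare each member with other gene ends, and the scaling matters because gene ends as a whole took a smaller share of the counts in aged cells. Scaled over all peaks, the median of all gene ends shifted to -0.25 in aged against young and to -0.24 in Ri against young, and the members' medians to -0.31 and -0.33. The members' medians thus lay below those of all gene ends on either scale. On this scale 0 members passed in aged cells, against 1.16% of gene ends. In Ri-treated against young cells 5 passed, against 5.87% of gene ends: Ndufa8 upward and 4 downward, among them Cox4i1, Ndufaf3 and Uqcrc2.

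The same holds of the sum over members. The peaks of the respiratory chain took 0.421% ± 0.0031 (SD, n = 4) of all counts in young libraries. Aged libraries gave them 0.355% ± 0.030 (SD, n = 5), and Ri libraries 0.350% ± 0.042 (SD, n = 5). Young libraries lay between 0.417 and 0.425%, and all 10 aged ones, treated or not, between 0.303 and 0.404%. As a share of gene-end counts only, the members took 0.829 to 0.904% in young, 0.809 to 0.851% in aged and 0.772 to 0.864% in Ri libraries, which overlap. Within batches 1, 2 and 3 the share of all counts differed between aged and young by -0.0885, -0.0663 and -0.0191 percentage points, beside gene-end shares that differed by -7.74, -6.08 and -1.13 points. Aged 5, in batch 3, had 0.402% and a gene-end share of 49.6%, within the young range of the latter. In bulk cells a shift in the makeup of the sorted cells and a change within each cell cannot be told apart.

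**Figure D5:**
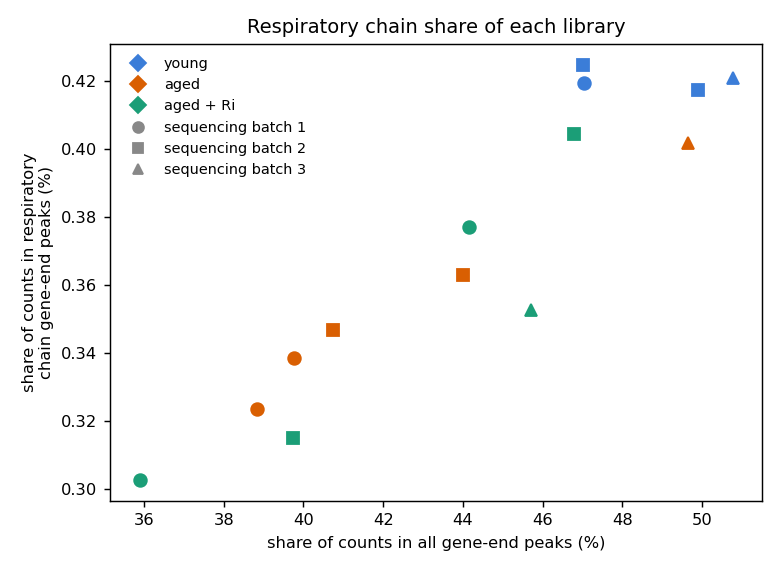
Share of each library's counts in respiratory chain gene-end peaks (y axis, %) against its share in all gene-end peaks (x axis, %); each point is 1 of 14 libraries, colours are groups and shapes are sequencing batches. The 4 young libraries lie at 0.417 to 0.425%, the 10 aged and Ri libraries at 0.303 to 0.404%, and libraries with a smaller gene-end share mostly have a smaller respiratory chain share.

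Single peaks were tested on the scale of all peaks. With age, 0 of 94 member peaks passed, against 5.72% of 56235 peaks and 363 of 13728 gene-end peaks. At an unadjusted p under 0.05, 27 were lower (28.7%, against 9.50% of all peaks and 17.2% of gene-end peaks) and 1 higher (1.06%, against 12.8% and 4.06%). DESeq2 called 1 member peak and 5.06% of all peaks. Without young 4, aged 4 or aged 5 the count that passed was 6, 2 or 4, against 11.5%, 6.48% and 8.29% of all peaks, and without young 1 it was 0 against 1.41%. In all, 81 of 94 (86.2%) were below 0 with a median of -0.31, beside 72.4% and -0.22 over all 13728 gene-end peaks tested. With a covariate for the library's gene-end share, 38 of 94 were below 0, the median was 0.04 (as over all peaks), 1 was lower at an unadjusted p under 0.05, and 0.258% of all peaks passed. Leaving out single libraries gave 14 (without young 1, aged 2 or aged 3) to 33 (without aged 5) lower at that p. After Ri, 0 of 94 passed, against 0.446% of all peaks and 13 of 13728 gene-end peaks, and DESeq2 called 0 member peaks. At an unadjusted p under 0.05 in edgeR, 2 were higher and 3 lower (2.13% and 3.19%). The shares were 5.61% and 4.61% over all peaks, and 3.19% and 1.76% over gene-end peaks. With the replicate block 2 passed, against 4.42% of peaks: that of Ndufa8 and a weak peak shared by an end of Atp5b, the catalytic subunit of complex V, and of Baz2a (chr10:128091344-128092043; log2 0.75, edgeR adjusted p = 0.0486).

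Between Ri-treated and young cells 6 of 94 member peaks passed, 1 upward (Ndufa8, log2 1.47) and 5 downward. Over all peaks 11.5% passed, and of 13728 gene-end peaks 904 did, 337 upward and 567 downward. The members' share is close to that of gene-end peaks. The peak of Ndufaf3 was at log2 -0.88 (edgeR adjusted p = 0.00763), that of Cox4i1 at -0.76 and that of Uqcrc2 at -0.64. Ndufa13, a complex I subunit, has 2 peaks at its start, and the one just inside the gene (chr8:69901342-69902041) fell by 0.72 on the log2 scale (edgeR adjusted p = 0.0217). That peak had 56.4 to 78.4 CPM of all counts in young and 29.7 to 47.8 in Ri libraries, with no overlap. It was named because it passed, and the share of all peaks without overlap is not given here. The other start peak (chr8:69902800-69903499) was at log2 -0.30 and did not pass (edgeR adjusted p = 0.429), nor did the gene end of Ndufa13. The count of member peaks that passed was 1 without young 1 (6.80% of all peaks passed in that run), 3 without young 3 (7.10%) or aged Ri 1 (8.21%), and 2 without aged Ri 3 (5.31%) or aged Ri 5 (11.9%). It was 10 without aged Ri 2 (11.9%) and 13 without aged Ri 4 (14.3%).

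Counting only peaks at RefSeq start sites, 73 members were tested, and 0, 0 and 1 of them passed in the 3 comparisons, against 1.91%, 0.177% and 5.03% of 10763 genes. The member was Ndufaf3 (log2 -0.62, edgeR adjusted p = 0.0102). With age 2 start sites were higher and 5 lower at an unadjusted p under 0.05 (2.74% and 6.85%, against 9.69% and 7.48% of all start sites). After Ri 0 were higher and 1 was lower (1.37%), against 3.74% and 2.48%. The genes whose start lies inside a longer annotation now had values: Cox5a, a complex IV subunit, was at log2 -0.39 with age and -0.60 in Ri against young cells (edgeR adjusted p = 0.320 and 0.0756), while Cox7a2 was at -0.20 and -0.28.

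Members grouped by promoter letters were set beside all genes with the same letters. With age the 23 members with an NRF1 core had a median log2 change of -0.19 at the start site, and the 50 without had -0.05. Over all genes the medians were -0.11 for 1587 with the core and 0.01 for 9176 without. After Ri the members with the core were at 0.04 and those without at -0.01, beside 0.03 and -0.01 over all genes. For the ETS site the members' medians with age were -0.07 with and -0.06 without, beside -0.07 and 0.01 over all genes. For the YY1 site they were -0.06 with and -0.09 without, beside -0.07 and -0.01. The GC box gave -0.12 with and -0.05 without in members, beside -0.05 and 0.08 over all genes. The CCAAT box gave -0.14 and -0.06, beside 0.02 and -0.05, and the CRE -0.03 and -0.07, beside 0.002 and -0.02. Lower medians with a motif than without were thus not particular to the NRF1 core.

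Another 4 lists of related genes were read from the same fits. None of 39 assembly factors outside the symbol rule, such as Surf1 and Sco1 of complex IV and Tmem70 of complex V, passed in any comparison, and their medians were 0.00, -0.03 and -0.01. The 18 regulators of mitochondrial biogenesis with counts also had none that passed. Their medians were -0.08 with age, -0.03 after Ri and -0.13 between Ri-treated and young cells. Tfb2m, a mitochondrial transcription factor, went from 201.4 ± 18.8 (SD, n = 4) to 152.4 ± 18.3 (SD, n = 5) CPM with age (edgeR adjusted p = 0.146). The values with age were log2 -0.25 at Nrf1, -0.36 at Yy1 and -0.10 at Tfam, which packages mitochondrial DNA. They were 0.68 at Ppargc1a, a coactivator of mitochondrial biogenesis, 0.37 at Myc and 0.21 at Ppargc1b. In all, 12 of the 18 regulators were below 0 with age and 6 above. Of 16 citrate cycle genes none passed, with medians of -0.00, -0.08 and -0.05. Of 18 genes of glycolysis and oxygen response none passed with age or after Ri, and the medians were 0.09, 0.005 and -0.004. Between Ri-treated and young cells 2 passed, both upward, beside 5.20% of all gene ends, and 9 of 18 were below 0. Pdk4, a kinase that restrains pyruvate entry into the citrate cycle, rose 3.27-fold in the fit, which includes batch (edgeR adjusted p = 0.0255). Its means were 48.4 CPM in young and 169.3 in Ri-treated cells. Hif1a, the oxygen-regulated transcription factor, rose 2.95-fold in the fit (edgeR adjusted p = 0.0281), with means of 6.60 and 19.4 CPM. In aged cells Pdk4 and Hif1a had 112.2 and 15.02 CPM. The Hif1a values are low: the lowest gene end tested had 7.36 CPM per peak (mean of 14 libraries). Neither call was checked under the alternatives.

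The spread of members between libraries was close to that of other gene ends: the median square root of the edgeR dispersion was 0.132 against 0.143. The median member had 67.5 counts per library, and members ranged from 13.2 to 394.9.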

How the data were processed

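ATAC-seq was measured in 14 libraries (4 young, 5 aged, 5 aged Ri). The deposited matrix holds raw counts per consensus peak, which the authors made with featureCounts, SAMtools 1.14 and R 4.2.0 on mm10, per the submitters' processing notes; the aligner, peak caller, duplicate handling and transposase shift are not given in the sources used here. All peaks are 700 bp wide. RefSeq genes (GRCm38.p6) were joined to peaks within 1 kb of either annotated end, and the end with more counts was used. Gene-end counts and single peaks were each tested in edgeR 4.0.16 (R 4.3.3): filterByExpr by group, TMM, group and sequencing batch, robust quasi-likelihood fit, Benjamini-Hochberg adjustment over all features and a threshold of 0.05. CPM are scaled by TMM within their own table. The code was tested on simulated counts. Alternatives were DESeq2 1.42.0, other scalings, windows, filters and designs, and leaving out each library. Start-site counts were added after seeing the data. Same-numbered aged and aged Ri libraries deviated together (correlations 0.137 to 0.645 over 25903 peaks, all above 0.1), so the replicate number was tried as a block. Aged Ri 4 correlated better with an aged library of another number than with aged 4. Same-numbered libraries also share a batch, and batch was not removed from these deviations. The sources used here do not give the pairing, so common cells and a common batch cannot be told apart. Named members are those that passed, the 4 largest and 4 smallest changes with a mean count of at least 20, the 5 highest and 5 lowest levels, called peaks, and members fixed by role; others are named for shared peaks or start sites, after their values were seen. The members, lists and motifs were chosen with earlier results of these data known. Library totals were 765533 to 3176246 counts; counts of sequenced fragments are not all independent molecules. Values of 1 member and 1 marker gene are not reported here.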

Additional observations from a re-analysis of the deposited data

Results flagged for a closer look

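Among 117 groups of libraries (the named gene ends and the library shares, by group), 8 held a library far from the others, and chance alone flags about 1 in 20 groups. Aged Ri 5 was low at 3 of them: at Atp5b with 124 CPM (others 163.6 to 176.7), at Atp5g1 with 294 CPM (others 419.9 to 460.9) and at Sdhc, a membrane anchor of complex II, with 52.9 CPM (others 67.3 to 70.1). Aged 3 was low at Cycs with 109 CPM (others 145.0 to 158.7) and high at Sdhc with 79.8 CPM (others 66.1 to 69.4). Ndufa4 was low in young 2 with 42.9 CPM (others 53.6 to 55.4) and in aged 5 with 37.3 CPM (others 67.1 to 75.2). Ndufa4l2 was high in young 1 with 40.7 CPM (others 23.1 to 24.5). None of these gene ends passed in the 3 main comparisons, though a weak peak shared by ends of Atp5b and Baz2a passed after Ri with the replicate block. The cause was not tested.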

How the results depend on the processing

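Of 2202 values for 37 named genes in 3 comparisons under the alternatives, 2004 kept their direction and side of the threshold or moved by less than the spread, 166 moved further, 15 passed and 13 no longer passed; 4 reversed. These are Ndufa8 at its start site in place of its 3′ end: -0.38 with age and -0.091 in Ri against young cells, and -0.64 and -0.33 scaled over all peaks.

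Members called with age (1) became 0 with scaling over all peaks, both ends summed, start sites on either scale, no batch term or the gene-end share as a covariate, and 0 to 2 without single libraries (0 without young 1, 2 or 3 or aged 1, 2 or 3; 2 without young 4). After Ri (0) they stayed at 0 without any single library. Between Ri and young (2) they became 5 scaled over all peaks, 1 at start sites, 1 with the share covariate and 1 to 6 without single libraries. All gene ends called with age (278) became 154 scaled over all peaks, 105 at start sites so scaled, 80 with no batch term, 12 with the share covariate and 30 (without young 1) to 662 (without aged 5). After Ri (10) they became 6, 19 at start sites, 5 so scaled, 3, 76 and 18 with 2 groups only, and 1 (without aged 2, 3 or 4) to 25 (without aged Ri 4). Between Ri and young (689) they became 336 with no batch term, 37 with the share covariate and 212 (without young 1) to 1191 (without aged Ri 4). Member peaks with age (0) became 1 in DESeq2 (5.06% of all peaks passed), 2 with 2 groups only (6.80%) and 0 to 6 (without young 4, 11.5%). They stayed at 0 after Ri without any library. Between Ri and young (6) they became 3 with no batch term (7.48% of all peaks passed) and 1 with the share covariate (0.994%). Without single libraries they were 1 (without young 1, 6.80%) to 13 (without aged Ri 4, 14.3%). The members' median with age (-0.06) became -0.31 scaled over all peaks, -0.31 at start sites so scaled, -0.011 with the share covariate and -0.14 (without aged 5) to -0.046 (without young 1). Between Ri and young (-0.09) it became -0.33, -0.31 and -0.045, and -0.12 to -0.084 without single libraries. After Ri it lay between -0.052 and -0.0012 without single libraries.

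With the replicate block, 150 gene ends, 2 members and 2 member peaks passed after Ri. Young 1 and young 3 share a batch with the other groups' libraries of their number, and young 2 and young 4 do not. Their correlations with those libraries were -0.278 to 0.0732. Young has no library 5, so the block runs against young also left out aged 5 or aged Ri 5. With age the block gave 869 gene ends, 2 members (Ndufa8 and Cox7a2l) and 16 member peaks (10.1% of all peaks passed). Leaving out aged 5 alone, with the batch term kept, gave 662 gene ends, 1 member and 4 member peaks. Between Ri and young Ndufaf3 lost its call (edgeR adjusted p = 0.0528) and Cox4i1 gained a downward call (0.0348). In these runs the block, the missing library and the missing batch term cannot be told apart. The median member had 67.5 counts per library, which limits what changes can be seen.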
